A study of Brassica napus and Camelina sativa and Thlaspi arvense with 24 samples.

Results

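N99 and DH12075 are lines of *Brassica napus*, the oilseed rape or canola plant, and their cotyledons, the seed leaves that feed the seedling until true leaves take over, were compared here. The 3 N99 and 3 DH12075 cotyledon libraries of RNA sequencing were joined by gene ID, and the 42123 of 123329 genes that averaged 1 TPM or more in these 6 libraries were tested. TPM is the share of a transcript among all transcripts of a library, corrected for length and scaled to the same total in each library. The whole series holds 24 libraries of 2 *B. napus* lines, *Camelina sativa* and pennycress, each as cotyledon and true leaf in 3 biological replicates. Both groups used here were untreated plants, kept in a growth chamber for up to 2 weeks after germination, and they differed in genotype, N99 against DH12075. Neither the labels nor the methods give the pedigree of N99, and the time of day of sampling was not given in the sources used here.

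*B. napus* carries the A chromosomes of a *B. rapa* ancestor and the C chromosomes of a *B. oleracea* ancestor. Most genes are therefore present as an A copy and a C copy, called homoeologs, and often as further copies left by an older triplication. Segments of matching A and C chromosomes can replace each other in single lines, so that a line can carry 1 homoeolog in extra dose and lack the other. Cotyledons of oilseeds first break down stored lipid and then turn green and photosynthesise like leaves.

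Genes are given by the ID of the DH12075 annotation, which names the chromosome and the order along it. IDs were paired with *Arabidopsis thaliana* genes where the summed values of the copies could be matched to those the study tabulated. This gave 1744 tested copies of 853 *A. thaliana* genes, all from the first part of *A. thaliana* chromosome 1. A copy not expressed in DH12075 could not be paired. Copies expressed in N99 alone are therefore missing from the lists, homoeolog pairs and sums below. Names and roles below are those of the *A. thaliana* gene. Reads of N99 were quantified against DH12075 transcripts, so an N99 transcript that differs from them can be listed too low. Copies with near-identical sequence can also exchange reads, and in bulk tissue fewer cells of a type and less RNA per cell cannot be told apart. The pairing held no copy of the green tissue or flower markers on the lists. The root marker PRX7 was at 0.05 to 0.18 TPM in N99 and 0 to 0.02 TPM in DH12075, and the seed markers CRU2 and LEC1 summed to 0.70 to 0.89 TPM in N99 and 0.16 to 0.35 TPM in DH12075. The chloroplast copies described below had already passed the filter for expression, so their expression is no check of the tissue label. That label was not checked beyond these root and seed markers.

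One library stood apart. In N99 replicate 2, the 10 most abundant genes held 37.1% of all TPM, against 7.98 to 10.6% in the other 5 cotyledon libraries, and 7 of these transcripts, at 6871 to 98811 TPM, were more than 10 times any other cotyledon library. All other genes of that library are therefore listed lower. For this reason the main counts are also given after rescaling, in which each library was divided by the share left beside its own 10 most abundant genes. The 7 transcripts themselves were all tested, and 6 of them were called between the lines as deposited, so the counts below include them. Correlations of log2(TPM + 1) over the tested genes, given as a description, were 0.949 to 0.970 within N99, 0.980 to 0.983 within DH12075 and 0.703 to 0.765 between the lines.

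A large part of the cotyledon transcriptome differed between the lines. With limma on log2(TPM + 1) and a Benjamini-Hochberg adjusted p under 0.05, 7658 genes were higher in N99 (18.2% of those tested) and 11088 were lower (26.3%). After rescaling, 11552 genes were higher (27.4%) and 11622 lower (27.6%). The share of higher genes among all calls was thus 40.9% on the deposited scale and 49.8% on the rescaled one. Rescaling moved the median log2 difference of all genes by 0.13, to 0.01 after rescaling against -0.12 as deposited. Differences below are on the deposited scale unless stated, and a value is best read against that median. No call was reversed by rescaling. Of the genes higher in N99 as deposited, 7552 were also higher after rescaling and 106 lost the call. Of the lower genes 10586 kept it and 502 lost it. A further 4000 genes were called higher and 1036 lower after rescaling alone.

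Many of these differences were large. The log2 difference was at least 1 in 4563 of the higher and at most -1 in 6535 of the lower genes, and it was at least 2 in 1523 and at most -2 in 1925. After rescaling these counts were 5399 and 5723, and 1846 and 1835. The shares by level that follow are on the deposited scale alone, on which N99 replicate 2 is listed lower. They were not computed after rescaling, so no trend with level is drawn from them. Among genes with a mean of 1 to 5 TPM, 20.3% were higher and 23.4% lower in N99, while among genes of 50 TPM and over 13.6% were higher and 32.1% lower. The median SD over replicates was 0.32 on the log2 scale in N99 and 0.14 in DH12075, and 0.20 and 0.14 after rescaling. As deposited, N99 replicate 2 was the lowest N99 library for 7854 of the 11088 genes called lower. It was the highest for 223 of the 7658 called higher. Without that library 9762 genes were higher and 9786 lower. After rescaling, N99 replicate 3 was the highest N99 library for 6364 of the 11552 genes called higher. It was the lowest for 5208 of the 11622 called lower. A pseudocount of 1 TPM was added before taking logs, which understates the change of genes with low values.

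The clock and light signalling genes held the largest difference among all listed copies. Of 11 tested copies of 6 genes, 6 were higher and 3 lower in N99, with a median of 1.0 against -0.12 over all genes, of which 18.2% were higher and 26.3% lower. After rescaling 7 were higher and 3 lower. LHY (AT1G01060), the morning transcription factor of the circadian clock, was at 5.27, 7.02 and 13.7 TPM in N99 and at 261, 245 and 276 TPM in DH12075 for its paired copy on C05. All N99 libraries were far below all DH12075 libraries, and the log2 difference was -4.85 ± 0.31 (SE, adjusted p = 1.6e-08, limma). A copy of RVE3 on A10, a clock-related factor of the same MYB-like family as LHY, was at 0.56, 0.97 and 0.36 TPM in N99 and 11.9, 9.48 and 14.0 TPM in DH12075, a log2 difference of -2.97 ± 0.22 (adjusted p = 6.1e-08, limma). BBX24 on C08, a B-box protein of light signalling, was also lower, at 23.9, 15.7 and 14.5 TPM in N99 against 49.5, 45.8 and 48.8 TPM in DH12075.

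**Figure D1:**
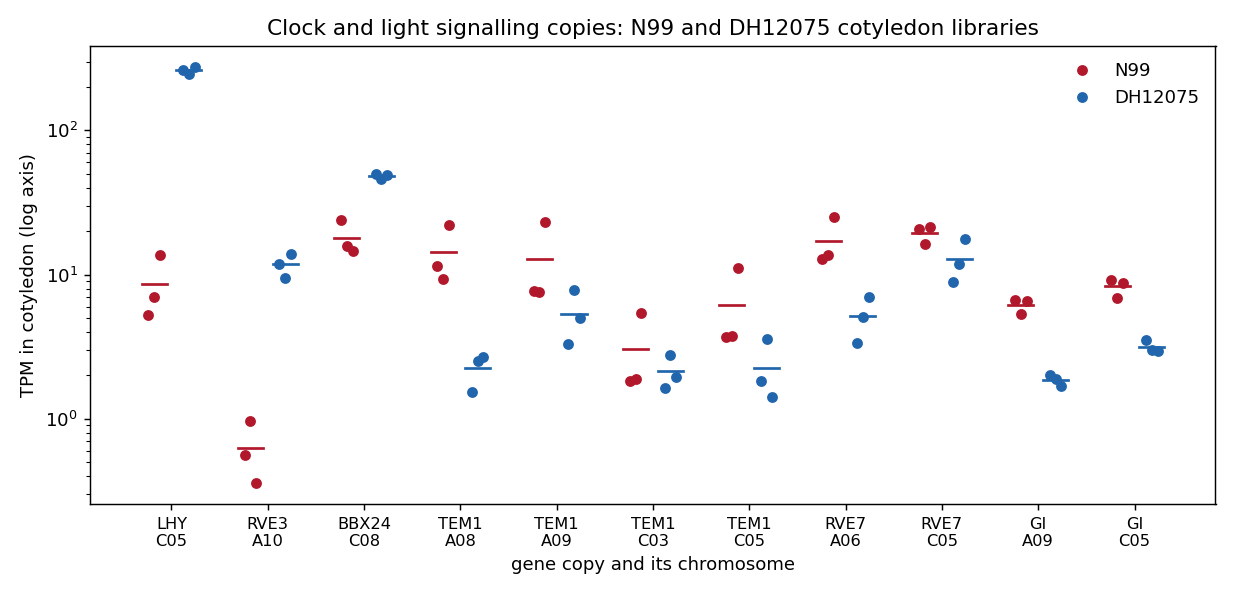
TPM of the 11 tested clock and light signalling copies (log axis) in the N99 libraries (red, left of each pair) and the DH12075 libraries (blue, right); each point is a library and each bar the mean of 3. LHY on C05 lies at 5.27 to 13.7 TPM in N99 and 245 to 276 TPM in DH12075, while both GI copies are higher in N99.

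The evening gene GI (GIGANTEA), which acts in the clock and in flowering time, went the other way in both homoeologs. Its A09 copy was at 6.71, 5.34 and 6.55 TPM in N99 and 2.0, 1.89 and 1.67 TPM in DH12075, and its C05 copy at 9.20, 6.84 and 8.78 TPM in N99 and 3.53, 2.99 and 2.95 TPM in DH12075. No library of one line reached the other line, and the log2 differences were 1.33 ± 0.19 and 1.15 ± 0.21 (SE). TEM1, a repressor of flowering in *A. thaliana*, was higher in 3 of 4 copies. The A08 copy, at 11.4, 9.31 and 22.2 TPM in N99 and 1.52, 2.51 and 2.69 TPM in DH12075, had a log2 difference of 2.17 ± 0.29 (adjusted p = 2.4e-05, limma). The calls of the other 2 TEM1 copies were lost when any 1 of several libraries was left out. Without N99 replicate 3 the A09 copy had an adjusted p of 0.15 and the C05 copy one of 0.073 (limma). Each call was also lost without N99 replicate 2 (0.079 and 0.062) and without DH12075 replicate 3 (0.065 and 0.073). For the A09 copy it was lost without DH12075 replicate 1 too (0.11). RVE7 on A06, another clock-related factor, was at 12.7, 13.7 and 25.2 TPM in N99 and 3.34, 5.08 and 6.96 TPM in DH12075, a difference of 1.55 ± 0.29.

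Of 8 tested copies of photosynthesis genes, 5 were lower in N99 and 0 higher, both as deposited and after rescaling. Over all genes tested 18.2% were higher and 26.3% lower as deposited, and 27.4% and 27.6% after rescaling. These copies belong to 3 of the 13 genes on that list, since the others were not paired. The median was -0.90, or -0.74 after rescaling. FD1, the leaf-type ferredoxin that carries electrons from photosystem I, fell in its copies on A08 and C08. The A08 copy had 4.03, 4.01 and 4.62 TPM in N99 and 32.7, 31.8 and 31.1 TPM in DH12075, and the C08 copy 31.6, 21.6 and 34.7 TPM in N99 and 142, 131 and 126 TPM in DH12075. These were log2 differences of -2.66 ± 0.22 and -2.17 ± 0.27. The FD1 copies on A06 and C05 were at 55.7 ± 27.6 and 61.5 ± 35.7 TPM in N99 and 36.1 ± 3.27 and 91.2 ± 15 TPM in DH12075 (mean ± SD, n = 3), and neither passed the test. Summed over its 4 copies FD1 was still lower in N99, with a log2 difference of -1.04.

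LHCA6, an antenna protein that joins photosystem I to the NDH complex, fell in its A08 copy, with 46.8, 21.2 and 12.1 TPM in N99 and 126, 134 and 102 TPM in DH12075 (-2.33 ± 0.38). N99 replicate 1 was the closest to DH12075, and all N99 libraries were below all DH12075 libraries. The C08 copy of LHCA6, at 88.4 ± 53.9 TPM in N99 and 133 ± 23.9 TPM in DH12075, did not pass. PNSB1, a subunit of the NDH complex, was lower in its A06 copy, with 74.3, 43.6 and 53.8 TPM in N99 and 126, 127 and 96.1 TPM in DH12075 (-1.03 ± 0.28). That call was lost without DH12075 replicate 2 (adjusted p = 0.052, limma). The C05 copy of PNSB1 (-0.77) lost its call without DH12075 replicate 1, 2 or 3 (adjusted p = 0.15, 0.15 and 0.074).

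Few chloroplast pigment and metabolism copies passed the test. Of 28 tested copies of 11 genes, 2 were higher and 3 lower in N99 as deposited, and 6 were higher and 4 lower after rescaling, with medians of -0.16 and -0.01, against 18.2% higher and 26.3% lower over all genes as deposited and 27.4% and 27.6% after rescaling. Copies of CHLD (chlorophyll synthesis), PORC (protochlorophyllide oxidoreductase), VDE1 (xanthophyll cycle), ZISO (carotenoid synthesis) and TRXM1 (a chloroplast thioredoxin) did not pass on the deposited scale, with log2 differences of -0.44 to 0.55. The largest change was a fall of PDH-E1 beta on A08, a subunit of the plastid pyruvate dehydrogenase that makes acetyl-CoA for fatty acids, at 24, 14.7 and 22.3 TPM in N99 and 49.5, 53.2 and 54.6 TPM in DH12075 (-1.35 ± 0.26).

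Copies of NTT2, the plastid ATP/ADP carrier, went both ways. The C08 copy was higher, at 13.2, 7.50 and 10.3 TPM in N99 and 5.11, 4.37 and 5.16 TPM in DH12075, and the A08 copy lower, at 8.63, 4.64 and 4.90 TPM in N99 and 10.7, 9.69 and 12.2 TPM in DH12075. The fall of the A08 copy was lost without N99 replicate 2 (adjusted p = 0.066, limma) and without DH12075 replicate 1 or 3 (0.054 and 0.085). The copies on A06 and C05, at 1.48 ± 0.42 and 2.66 ± 0.85 TPM in N99 and 1.95 ± 0.07 and 2.46 ± 0.40 TPM in DH12075, did not pass, and summed over 4 copies NTT2 differed by -0.01 (log2). HEMA2 on C08, glutamyl-tRNA reductase of tetrapyrrole synthesis, was higher, at 11.8 ± 3.28 TPM in N99 and 6.24 ± 1.36 TPM in DH12075. Its call was lost without N99 replicate 1 (adjusted p = 0.062, limma) and without DH12075 replicate 1 or 3 (0.054 and 0.11). PDH-E1 alpha on A10, the partner subunit of PDH-E1 beta, was at 12.6 ± 4.48 TPM in N99 and 21.2 ± 4.50 TPM in DH12075, and its call held without N99 replicate 3 alone (adjusted p = 0.066 to 0.20 without any 1 of the other 5 libraries, limma).

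**Figure D2:**
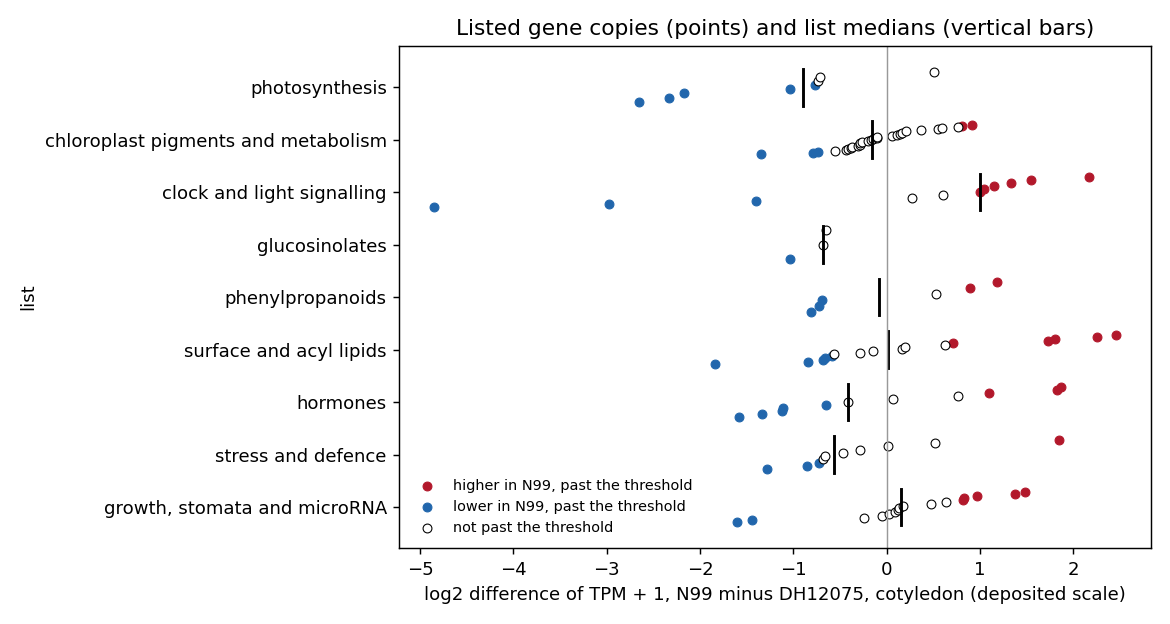
Log2 difference of TPM + 1, N99 minus DH12075, for the tested copies of 9 lists (rows; points right of 0 are higher in N99); filled points passed the adjusted p threshold and black bars are list medians. The median lies at -0.90 for photosynthesis and 1.0 for clock and light signalling, against -0.12 over all genes.

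Genes of the leaf surface and of acyl lipids were spread to both sides, with 5 of 16 tested copies higher, 5 lower and a median of 0.01, and 6 higher and 6 lower after rescaling. The shares over all genes were 18.2% and 26.3%, and 27.4% and 27.6% after rescaling. CYP86A4, a fatty acid hydroxylase in the synthesis of cutin, the polyester of the cuticle, rose in both tested homoeologs. Its C05 copy was at 31.5, 17.3 and 14.5 TPM in N99 and 2.20, 4.27 and 4.07 TPM in DH12075 (2.25 ± 0.30), and its A10 copy at 13.2, 6.04 and 3.51 TPM in N99 and 0.63, 1.83 and 1.32 TPM in DH12075 (1.80 ± 0.34). GPAT4, an acyltransferase of the same pathway, rose in its C05 copy, with 26.5, 21.6 and 39.4 TPM in N99 and 6.06, 7.92 and 9.96 TPM in DH12075 (1.73 ± 0.27).

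GPAT4 on A09 went down by 0.66 on the log2 scale, a call lost without N99 replicate 2 (adjusted p = 0.054, limma) and without DH12075 replicate 1, 2 or 3 (0.079, 0.066 and 0.19). The GPAT4 copy on A10 was at 9.42 ± 2.89 TPM in N99 and 8.13 ± 1.28 TPM in DH12075. GPAT2, another acyltransferase, was lower in its A10 copy, at 7.63, 4.07 and 3.86 TPM in N99 and 20.4, 17.2 and 24.1 TPM in DH12075 (-1.84 ± 0.26). Its C05 copy was at 6.09 ± 2.22 TPM in N99 and 3.29 ± 1.05 TPM in DH12075, a call that 4 of the 6 omissions of a library ended (N99 replicates 2 and 3, with adjusted p of 0.062 and 0.11, and DH12075 replicates 1 and 2, with 0.083 and 0.18). ACLA-1, a subunit of the ATP-citrate lyase that makes cytosolic acetyl-CoA, was at 10.2, 6.06 and 7.08 TPM in N99 and 0.59, 0.52 and 0.59 TPM in DH12075 for the A08 copy (2.46 ± 0.21, adjusted p = 2.6e-07, limma), while its C08 copy was at 1.33 ± 0.39 and 1.01 ± 0.06 TPM in N99 and DH12075. LPLAT1 on A06, a lysophospholipid acyltransferase, was lower at 13.4, 10.4 and 17.5 TPM in N99 and 26.4, 24.5 and 24.4 TPM in DH12075, a call lost without DH12075 replicate 1 (adjusted p = 0.066, limma).

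The other 2 falls on that list were small, and each lost its call when any 1 of several libraries was left out. KCS1 on A10, an enzyme that elongates fatty acids for wax, was at 2.15 ± 0.34 TPM in N99 and 4.17 ± 1.5 TPM in DH12075, and lost its call without N99 replicate 1 or 2 (adjusted p = 0.066 and 0.084, limma) or DH12075 replicate 3 (0.17). ABCG11 on A08, which exports cuticle lipids, was at 2.67 ± 0.81 TPM in N99 and 4.43 ± 0.46 TPM in DH12075, and held its call without N99 replicate 3 alone (adjusted p = 0.056 to 0.15 without any 1 of the other 5 libraries, limma).

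Among hormone genes, 3 of 11 tested copies were higher and 5 lower, on both scales, with a median of -0.41 as deposited. The shares over all genes were 18.2% and 26.3% as deposited, and 27.4% and 27.6% after rescaling. ACO4, the ACC oxidase that makes ethylene, rose in both homoeologs. The A10 copy was at 18.1, 13.9 and 18.8 TPM in N99 and 3.54, 4.26 and 3.93 TPM in DH12075 (1.86 ± 0.22), and the C05 copy averaged 16.2 ± 4.35 TPM in N99 and 6.91 ± 0.75 TPM in DH12075 (1.1). RCAR1, an abscisic acid receptor, fell in both homoeologs. The A10 copy was at 5.96, 3.94 and 4.20 TPM in N99 and 13.9, 12.4 and 23.2 TPM in DH12075 (-1.58 ± 0.26), and the C05 copy at 5.71, 3.67 and 5.13 TPM in N99 and 11, 9.84 and 14.3 TPM in DH12075 (-1.12 ± 0.23). AHK3 on C07, a cytokinin receptor, was at 2.85, 1.96 and 4.35 TPM in N99 and 7.50, 6.29 and 8.92 TPM in DH12075 (-1.11 ± 0.24). BEE1, a transcription factor induced by brassinosteroids, was low in both lines and lower in N99, at 0.88 ± 0.51 TPM in N99 and 3.72 ± 1.29 TPM in DH12075 on A06 and 0.62 ± 0.32 TPM in N99 and 1.52 ± 0.05 TPM in DH12075 on C05. JAZ8 on C03, a repressor of jasmonate signalling, was at 12.3, 1.58 and 6.51 TPM in N99 and 0.27, 0.38 and 2.32 TPM in DH12075. The lines overlapped, and the call (1.82 ± 0.47) was lost without N99 replicate 1 (adjusted p = 0.066, limma).

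Of 10 stress and defence copies, 1 was higher and 3 were lower, with a median of -0.56, and 2 were higher and 4 lower after rescaling. These counts were near the shares over all genes, 18.2% and 26.3% as deposited and 27.4% and 27.6% after rescaling. DHAR1 on C08, dehydroascorbate reductase, rose, with 21.9, 10.8 and 18.8 TPM in N99 and 3.91, 3.47 and 4.22 TPM in DH12075 (1.85 ± 0.26). Its more abundant copies on A06 and C05 were at 62.7 ± 23.9 and 63.0 ± 20.4 TPM in N99 and 41.1 ± 0.53 and 60.5 ± 2.11 TPM in DH12075. Neither passed as deposited, nor did the sum of its copies (log2 difference 0.34), which was called higher after rescaling (0.50). NIMIN1, which binds the salicylic acid regulator NPR1, was lower in 3 of 4 copies as deposited and in the C08 copy alone after rescaling. That copy was at 3.41, 1.46 and 3.18 TPM in N99 and 9.86, 4.73 and 9.46 TPM in DH12075 (-1.28 ± 0.29). The A09 copy, whose lines overlapped, lost its call without N99 replicate 1 or 2 (adjusted p = 0.18 and 0.13, limma) or DH12075 replicate 1 or 3 (0.12 and 0.17). CSD1, a cytosolic superoxide dismutase, was at 206 ± 50.3 TPM in N99 and 320 ± 10.6 TPM in DH12075 on C08 and passed after rescaling alone.

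Glucosinolate and phenylpropanoid genes had few tested copies. The shares over all genes were 18.2% higher and 26.3% lower as deposited, and 27.4% and 27.6% after rescaling. UGT74B1 on A09, the glucosyltransferase of the glucosinolate core, was the 1 of 3 glucosinolate copies past the threshold, at 14.0, 5.74 and 12.8 TPM in N99 and 19.2, 20.1 and 27.4 TPM in DH12075 (-1.04 ± 0.31). That call was lost without DH12075 replicate 3 (adjusted p = 0.059, limma). Of 6 phenylpropanoid copies 2 were higher and 3 lower, with a median of -0.08, and 3 were higher and 3 lower after rescaling, against 18.2% and 26.3% of all genes as deposited. ADT1, which makes phenylalanine from arogenate, was higher in both homoeologs, at 4.61 ± 1.40 TPM in N99 and 1.41 ± 0.17 TPM in DH12075 on C08 and 2.55 ± 1.14 TPM in N99 and 0.84 ± 0.08 TPM in DH12075 on A08. CCR1, cinnamoyl-CoA reductase of lignin synthesis, was lower in 3 of 4 tested copies, on C08 (15.1, 8.04 and 14.2 TPM in N99 and 19.5, 19.2 and 27.8 TPM in DH12075), C05 (24.8, 14.8 and 21.2 TPM in N99 and 32.6, 32.0 and 35.7 TPM in DH12075) and A06 (14.8, 9.24 and 14.1 TPM in N99 and 19.1, 18.1 and 25.5 TPM in DH12075). The A09 copy had the other sign, at 19 ± 5.81 TPM in N99 and 12.6 ± 2.87 TPM in DH12075, and passed after rescaling alone (log2 difference 0.69, adjusted p = 0.016, limma). The sum of the 4 copies did not pass (-0.49). Without DH12075 replicate 3 none of the 3 calls held in limma (adjusted p = 0.15, 0.14 and 0.22), nor did the C08 and A06 calls without N99 replicate 2 (0.067 and 0.075) or the C05 and A06 calls without DH12075 replicate 1 (0.11 and 0.095) or 2 (0.10 and 0.078).

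Genes of growth, stomata and microRNA processing had 5 of 16 copies higher and 2 lower, with a median of 0.16, and 7 higher and 2 lower after rescaling. Over all genes the shares were 18.2% and 26.3%, and 27.4% and 27.6% after rescaling. FLP, the MYB factor that ends guard cell divisions, fell in both homoeologs, with 7.58, 6.32 and 4.25 TPM in N99 and 15.9, 22.9 and 22.1 TPM in DH12075 on A06 (-1.61 ± 0.26) and 10.7, 7.86 and 5.35 TPM in N99 and 17.6, 29.9 and 22.2 TPM in DH12075 on C05 (-1.44 ± 0.28). CIPK9 on A10, a kinase of potassium signalling, was at 63.6, 39.7 and 93.9 TPM in N99 and 20.3, 22.7 and 21.4 TPM in DH12075 (1.49 ± 0.30). The copies of CIPK9 on A09 and C05 were at 69.4 ± 17.1 and 70.3 ± 27.3 TPM in N99 and 80.8 ± 5.37 and 47.6 ± 3.01 TPM in DH12075. Neither passed as deposited, and the C05 copy passed after rescaling (log2 difference 0.64, adjusted p = 0.019, limma). CYP78A8 on A10, a cytochrome P450, was at 32.8, 16.4 and 45.5 TPM in N99 and 12.4, 13.6 and 7.04 TPM in DH12075 (1.37 ± 0.35). Its A09 copy overlapped between the lines and lost its call without N99 replicate 1 or 3 (adjusted p = 0.15 and 0.13, limma) or DH12075 replicate 3 (0.13). GIF2, a coactivator of cell division in leaves, was higher in its copies on A10, at 2.02 ± 0.23 TPM in N99 and 0.71 ± 0.24 TPM in DH12075, and C05, at 15.4 ± 3.13 TPM in N99 and 8.28 ± 1.32 TPM in DH12075, the second of which lost its call without DH12075 replicate 2 (adjusted p = 0.095, limma). DCL1 and HYL1, which process microRNA precursors, had 5 tested copies, and 0 of them passed on either scale, with log2 differences of -0.05 to 0.14. Of the cytosolic ribosome list 2 copies were paired, and neither reached the mean of 1 TPM. Over all lists 24 of 109 copies were higher and 30 lower, near the 18.2% and 26.3% of all genes, and after rescaling 34 were higher and 33 lower. Of the 54 calls as deposited, 20 were lost without at least 1 library. Without N99 replicate 2, 29 copies were higher and 24 lower, and without DH12075 replicate 3, 23 were higher and 19 lower.

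The 6 steepest rises in N99 were taken among paired copies averaging 10 TPM or more that were called and whose lines did not overlap. DRM1 (AT1G28330), a dormancy-associated gene, rose in both homoeologs. It was at 59.4, 86.6 and 223 TPM in N99 and 2.08, 1.63 and 2.28 TPM in DH12075 on C05 (5.15 ± 0.38), and at 69.8, 96.6 and 254 TPM in N99 and 2.87, 3.0 and 4.37 TPM in DH12075 on A09 (4.79 ± 0.38). BXL2 (AT1G02640), a beta-xylosidase of the cell wall, was at 20.04, 27.9 and 67.7 TPM in N99 and 0.02, 0 and 0.01 TPM in DH12075 on C05. AT1G02610 on C05 was at 18.98, 36.7 and 132 TPM in N99 and 0.27, 0.10 and 0.46 TPM in DH12075, and AT1G21670 on A06 at 29.8, 34.9 and 108 TPM in N99 and 0.05, 0.04 and 0.15 TPM in DH12075. In these 5 copies N99 replicate 3 was the highest library by far, and N99 replicate 1 was the lowest of the N99 libraries. AT1G13930 on A08 had another order, at 70.0, 46.6 and 37.4 TPM in N99 and 0.22, 0.46 and 0.69 TPM in DH12075.

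The steepest falls after LHY had little spread. AT1G14890 on C08, of the family of pectin methylesterase and invertase inhibitors, was at 5.36, 3.79 and 4.19 TPM in N99 and 89.3, 65.9 and 91.5 TPM in DH12075 (-3.93 ± 0.25). AT1G16730 on C08 was at 1.79, 1.38 and 1.51 TPM in N99 and 28.3, 23.9 and 26.9 TPM in DH12075 (-3.42 ± 0.21). SWEET1 (AT1G21460), a sugar transporter, was at 3.79, 2.17 and 1.81 TPM in N99 and 31.3, 31.1 and 44.5 TPM in DH12075 on C05 (-3.37 ± 0.26). AT1G03055 on C08, which resembles the D27 isomerase of strigolactone synthesis, was at 3.96, 2.62 and 1.96 TPM in N99 and 27.6, 26.9 and 29.8 TPM in DH12075. AT1G25480 on A09, a channel of the aluminium-activated malate transporter family, was at 2.96, 2.74 and 3.19 TPM in N99 and 25.8, 24.95 and 24.9 TPM in DH12075. No N99 library of these falls reached a DH12075 library, which the rule that picked them required.

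Some genes without a pairing were nearly absent from 1 line. BnaS73122g010, on an unplaced scaffold, was at 859, 219 and 1401 TPM in N99 and was listed at 0 in all 3 DH12075 libraries. BnaA07g024510 was at 531, 330 and 649 TPM in N99 and likewise listed at 0 in DH12075. In the other direction BnaC05g071320 was listed at 0 in all 3 N99 libraries and at 198, 216 and 271 TPM in DH12075, and BnaA05g000550 was at 0.44, 0.22 and 0.43 TPM in N99 and 414, 412 and 440 TPM in DH12075. Of the tested genes, 448 were listed at 0 in every N99 library and 402 in every DH12075 library. No fold change is given against a line listed at 0.

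Where both homoeologs passed the test, they mostly had the same direction. For 394 *A. thaliana* genes exactly 1 A copy and 1 C copy were paired and tested. Both copies were higher in N99 in 42 genes and both lower in 57, while 5 had opposite calls and in 171 neither passed. After rescaling these numbers were 67, 63, 13 and 112. In 119 genes 1 copy alone passed as deposited, 69 of them through the A copy (23 higher, 46 lower) and 50 through the C copy (21 higher, 29 lower). After rescaling the A copy alone was higher in 35 genes and lower in 42, and the C copy alone higher in 32 and lower in 30. Across these 394 genes the log2 differences of the A and C copies had a Pearson correlation of 0.67, given as a description since genes are not replicates and the copies share libraries and may share reads. The A copy gave a median of 50.1% of the TPM of its pair in N99 and 50.6% in DH12075. It gave more than the C copy in N99 but less in DH12075 for 49 genes, and less in N99 but more in DH12075 for 53.

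**Figure D3:**
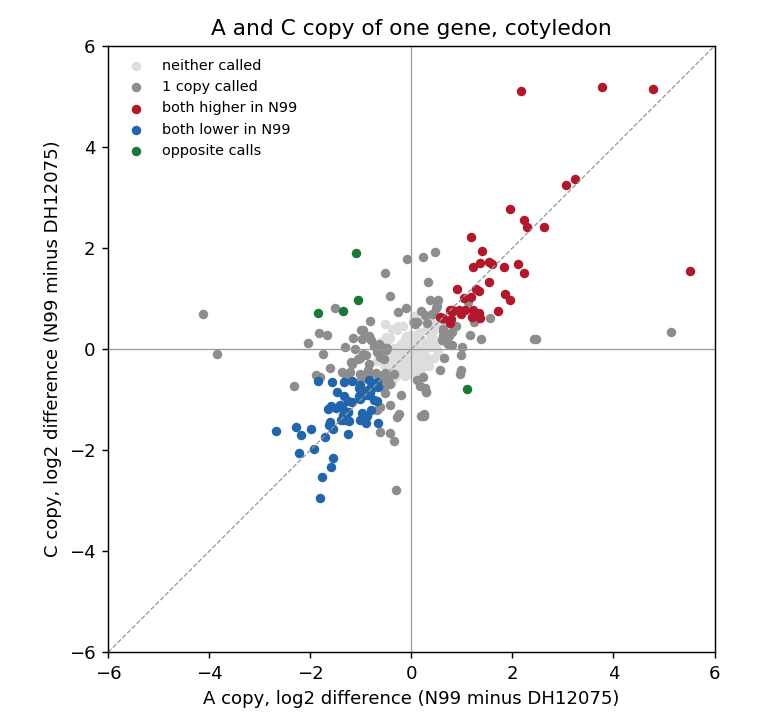
Log2 difference of TPM + 1, N99 minus DH12075, of the A copy (horizontal axis) and the C copy (vertical axis) of 394 genes with 1 paired copy each; colours give the calls and the dashed line marks equal differences. The 42 genes with both copies higher are at the upper right and the 57 with both lower at the lower left, some of them well off the line, and 5 genes have opposite calls.

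Summing copies showed how far the total of the paired copies of a gene differed. Copies expressed in N99 alone could not be paired and are missing from these sums, while copies silent in N99 alone are included. Of 896 tested sums, 170 were higher in N99 (19.0%) and 236 lower (26.3%), and 268 and 250 after rescaling. The spread of these sums was moderated over the sums alone, and when it was shared with all single genes, 151 were higher and 212 lower (limma, adjusted over the sums). With that shared spread the sum also passed in 56 of the 119 genes in which a single homoeolog did. The sums of LHY (-4.85, a single paired copy), GI (1.36), CYP86A4 (2.31), ACO4 (1.52), ACLA-1 (1.95), FLP (-1.59) and RCAR1 (-1.45) passed under both spreads, as did TEM1 (1.42). GPAT2, whose homoeologs had opposite calls, was lower in sum (-1.02), also under both. CIPK9 (0.39) and PDH-E1 alpha (-0.03) did not pass in sum on the deposited scale under either spread. After rescaling the CIPK9 sum was called higher (0.56). The sum of SOT17 (-0.69), a sulfotransferase of glucosinolate synthesis, passed with the spread of the sums and not with the shared one (adjusted p = 0.11, limma), and that of JAZ8 (1.6) passed with both as deposited and not after rescaling.

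The largest contiguous differences lay toward chromosome ends, not all of them reaching the last gene. A gene was taken as low in a line if its mean there was under 10% of that in the other line, which held for 1754 of 43179 placed genes in N99 (4.06%) and 1749 in DH12075 (4.05%). Stretches were taken where at least 80% of a window of 25 genes in ID order were low in the same line. Of the genes low in N99, 280 lay in 6 stretches on C05, C06 and C09 (16.0%), and of those low in DH12075, 441 lay in 3 stretches on C01 and C02 (25.2%). The stretch at the start of C02 held 243 genes, 231 of them low in DH12075, and its summed TPM was 3023, 2078 and 3379 in N99 and 56.6, 56.6 and 58.8 in DH12075. Toward the end of C01, 1 stretch held 105 genes with 101 low in DH12075 and another, reaching the last gene, 117 with 109 low. On C09 there were 3 stretches with 94 of 103, 66 of 75 and 43 of 49 genes low in N99, and the longest summed to 48.5, 32.8 and 50.1 TPM in N99 and 1647, 1576 and 1645 TPM in DH12075. On C05 2 stretches, expressed genes 2131 to 2157 and 2176 to 2213 of 2502, had 22 of 27 and 32 of 38 genes low in N99. Neither these nor the C09 stretches, which stopped at gene 2605 of 2641, reached the end. Of the last 26 expressed genes of C06, 23 were low in N99. No stretch held a paired copy. In true leaf, 278 genes of the stretches low in N99 and 440 of those low in DH12075 were under the same limit. RNA alone cannot tell a missing segment from a silent one.

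The facing ends of A01, A02 and A05 leaned the other way, and A10 did so further in. C01 and A01, C02 and A02, and the ends of C05 and A05 and of C09 and A10 are largely matching in gene content. Over the outermost 100 tested genes, the median log2 difference was 2.76 at the end of C01 and -0.97 at the end of A01, and 2.73 at the start of C02 and -0.62 at the start of A02. It was -1.92 at the end of C05 and 0.66 at the end of A05. At the end of C09 it was -1.76. At all other ends, the end of A10 included, the median lay between -0.28 and 0.02. Running medians of 25 genes fell to -3.73 on C09, centred 183 tested genes from the end, and reached 1.22 on A10, centred 228 genes from the end. On C05 they rose to -0.14, centred 153 genes from the end, and were at 0.05 where centred 263 genes in. They fell to -3.32 further in, centred 288 genes from the end of C05. The genes of the chromosome ends were counted after the stretches had been seen. After rescaling the medians were 3.02, -0.85, 2.99, -0.50, -1.98 and 0.81 for C01, A01, C02, A02, C05 and A05. At the ends of C09 and A10 the rescaled medians were -1.79 and 0.14, and all remaining ends lay between -0.15 and 0.15. Outside the stretches 41492 tested genes remained, of which 7282 were higher and 10847 lower in N99 with a median of -0.12.

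**Figure D4:**
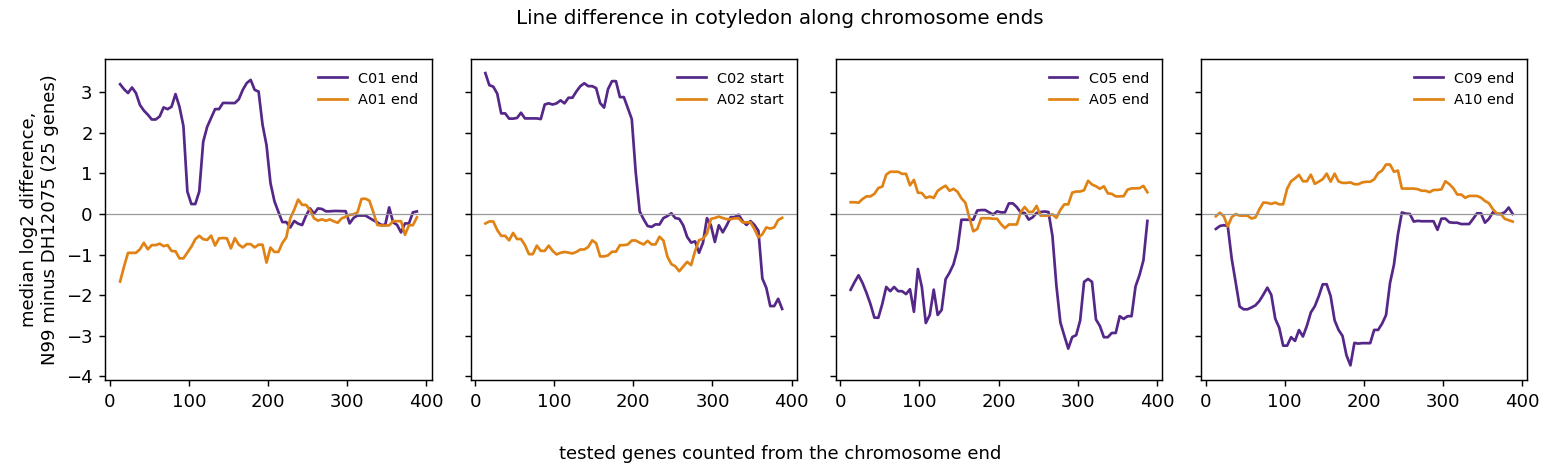
Median log2 difference, N99 minus DH12075, in running windows of 25 tested genes (vertical axis) against the number of genes from the chromosome end (horizontal axis), for 4 C ends (purple) and the matching A ends (orange). C01 and C02 reach 3.31 and 3.47 and A01 and A02 fall to -1.67 and -1.41, the A02 minimum 258 genes in, where C02 is at -0.12, and C02 falls to -2.34 at 388 genes. C05 and C09 fall to -3.32 and -3.73, the C05 minimum 288 genes in, and A05 and A10 reach 1.04 and 1.22.

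Most differences between the lines were also present in true leaf. Over the 6 leaf libraries and the same genes, 10588 were higher in N99 (25.1%) and 9661 lower (22.9%). Of the genes higher in N99 cotyledons, 5635 were also higher in N99 leaves, 89 were lower and 1934 did not pass. Of those lower in cotyledons, 7258 were lower in leaves, 249 were higher and 3581 did not pass. The difference between tissues was tested as an interaction of line and tissue over 12 libraries. The line difference was more positive in cotyledon than in leaf for 1191 genes (2.83%) and more negative for 3424 (8.13%), and for 2521 and 3813 after rescaling. Without N99 replicate 2 the numbers were 1933 and 2773, and without DH12075 replicate 1 they were 683 and 2148.

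Among the 109 listed copies, 16 had a line difference that depended on tissue by limma as deposited, and these passed after rescaling too. Further listed copies passed after rescaling alone, among them FD1 on C08, PORC on C05 and DHAR1 on C08. Of all genes tested, 2.83% had a more positive and 8.13% a more negative line difference in cotyledon as deposited. RVE7 on A06 had the largest interaction, 4.03 ± 0.47 (adjusted p = 0.00025, limma): it was higher in N99 cotyledons, as given above, and at 5.23, 2.09 and 1.83 TPM in N99 leaves against 25.6, 15.8 and 19.9 TPM in DH12075 leaves. Its C05 copy also depended on tissue (2.38 ± 0.37). All 4 copies of NIMIN1 did so in the other direction, with interactions of -3.50 to -2.75, and were higher in N99 leaves. The 3 tested GWD1 copies, of the glucan water dikinase that starts starch breakdown, did not pass in cotyledon (log2 differences of -0.20 to 0.60), were higher in N99 leaves (1.6 to 2.45) and had interactions of -2.65 to -1.39. Both ACO4 copies were higher in N99 in both tissues and more so in leaf. The falls of RCAR1 and GPAT2 on A10 were called in cotyledon and not in leaf, with interactions of -1.53 ± 0.42 and -1.65 ± 0.35. The interaction of LHY, 1.25 ± 0.41, did not pass as deposited (adjusted p = 0.067, limma) and passed after rescaling (0.036). LHY was lower in N99 in both tissues, at 1.44, 0.43 and 1.59 TPM in N99 leaves and 143, 147 and 136 TPM in DH12075 leaves.

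**Figure D5:**
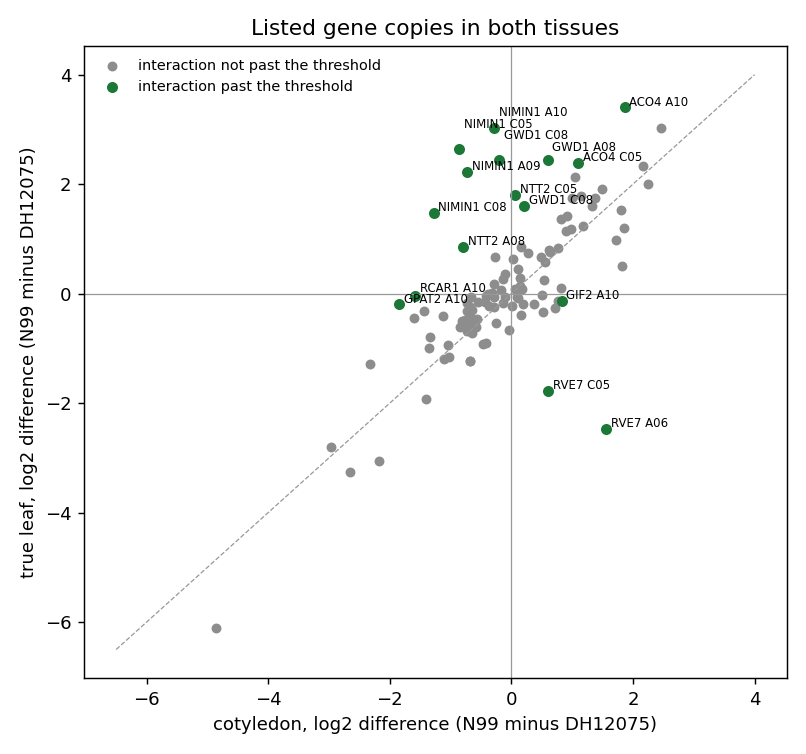
Log2 difference of TPM + 1, N99 minus DH12075, of 109 listed copies in cotyledon (horizontal axis) and true leaf (vertical axis). Green points are the 16 copies whose line difference depended on tissue on the deposited scale, and the dashed line marks equal differences. RVE7 lies below the line, and NIMIN1 and GWD1 lie above it.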

How the data were processed

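RNA from cotyledons and true leaves of both lines was sequenced with 3 biological replicates per line and tissue. After trimming in Trimmomatic 0.32, the authors ran Salmon 1.10.0 on transcripts of DH12075 and deposited TPM per gene. TPM keeps no depth, so counting error is unknown. Genes averaging 1 TPM or more in the 6 cotyledon libraries were tested on log2(TPM + 1), N99 minus DH12075, with limma 3.58.1 in R 4.3.3 (eBayes with trend) and Benjamini-Hochberg adjustment over all 42123 genes at 0.05. The fit was tested on simulated data.

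Counterparts in *A. thaliana* were found through the study's table of summed values, of which only gene identities were used: 1101 of 1731 usable genes were paired, with 2452 IDs, while 628 had no set of IDs and 2 had more than 1. None of the IDs (0) was found in the RefSeq gene table, so no sequence is shown.

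Text names were set by rule: up to 4 called copies per list with the largest difference (mean of at least 5 TPM), the 6 largest rises and 6 largest falls among paired copies (mean of at least 10 TPM, lines not overlapping), at most 2 of each among unpaired IDs, and the 3 largest interactions. Other copies were named after their values were seen. The members and lists were chosen with earlier results of these data known. Alternatives were another pseudocount (0.1 TPM), other filters (none, 5 TPM), rescaling, quantile normalization, a fold threshold, a 12-library fit, a replicate block, other windows and leaving out each library. Tables of the other species were not used here.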

Additional observations from a re-analysis of the deposited data

Results flagged for a closer look

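The line difference depended on tissue for 4615 genes by the interaction test of limma over 12 libraries. Among paired copies the largest such interaction was 4.03 ± 0.47 for RVE7 on A06 (BnaA06g014790), which was higher in N99 cotyledons and lower in N99 leaves. It was 3.35 ± 0.74 (adjusted p = 0.011, limma) for AT1G02610 on C05 (BnaC05g001310), at 4.47, 3.70 and 0.98 TPM in N99 leaves and 0, 0.05 and 0.05 TPM in DH12075 leaves, and with a pseudocount of 0.1 TPM it was 2.67 with an adjusted p of 0.10. It was 3.18 ± 0.58 (adjusted p = 0.0039, limma) for AT1G21670 on A06 (BnaA06g018330), at 10.5, 9.69 and 3.94 TPM in N99 leaves and 0.86, 1.01 and 0.27 TPM in DH12075 leaves. Both were higher in N99 in each tissue, by more in cotyledon. N99 replicate 3 was the highest cotyledon library for all 3 copies.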

How the results depend on the processing

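The limits are those of 3 libraries a line, 1 of which, N99 replicate 2, had an unusual make-up, of TPM without depth, and of quantification against the transcripts of DH12075. Rescaling raised the number of genes higher in N99 to 11552 and quantile normalization to 11528, against 7658 as deposited. A filter of 5 TPM tested fewer genes and called 9788, of which 3492 were higher and 6296 lower, and a log2 difference of at least 1 left 11098 (4563 and 6535). Leaving out 1 library gave 15470 to 19548 calls, 6076 to 9762 higher and 8824 to 12028 lower. For listed copies the fold threshold left 34 calls, 17 of them lower, and leaving out 1 library gave 42 to 53 calls, 21 to 29 higher and 19 to 32 lower. Rescaling called 268 sums higher. Interactions more positive in cotyledon numbered 2521 after rescaling, and leaving out 1 library gave 2831 to 5999 interactions, 683 to 1933 more positive and 2148 to 4766 more negative. The cause was not tested. Of 951 values of 69 named or called listed copies under the alternatives, 851 kept their call, 100 lost it and 0 reversed. These copies had been picked for their calls and were refitted on the same libraries. The counts therefore do not measure how often a call would repeat in new samples.

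Whether replicate numbers pair the samples could not be settled from so few libraries. Deviations of same-numbered libraries had correlations of 0.0231, 0.0117 and 0.144, and those of other pairs ran from -0.13 to 0.117. With a replicate block 8789 genes were higher and 12316 lower, 4463 interactions and 460 sums were called, and 30 listed copies were higher and 32 lower.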
